A study of Mus musculus with 30 samples.

Results

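The 10 genes described here are genes of the fat cell, read in skeletal muscle. *Adipoq*, *Lep*, *Retn* and *Cfd* encode the secreted proteins adiponectin, leptin, resistin and adipsin. *Plin1* and *Cidec* encode proteins of the lipid droplet, *Fabp4* a carrier of fatty acids, *Scd1* a desaturase of fatty acids, *Ucp1* the uncoupling protein of brown and beige fat, and *Car3* carbonic anhydrase 3, which fat shares with muscle. They were taken by name from the 56748 genes of the deposited table as a measure of fat tissue in the muscle samples, and all 10 held enough counts to be among the 17518 genes tested.

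Poly(A)-enriched RNA was sequenced from the quadriceps of 30 mice. Treated mice were 8 weeks old at injection into the tail vein, and muscle was taken 2 weeks after the last injection. WT mice (n = 5) were of the FVB/N strain and lacked the transgene. All other mice were homozygous for the HSA-LR transgene of line 20b, which drives a human skeletal actin mRNA with an expanded CTG repeat in muscle fibres and models myotonic dystrophy type 1. They were left nontreated (NT, n = 8) or received pacDNA-L9, an antisense oligonucleotide of locked nucleic acid against CUG repeats (L9) joined to a bottlebrush polymer, with 4 mice at 5.3 mg/kg and 3 mice each at 21.2 and at 42.4 mg/kg. The others received L9 without the polymer at 5.3 mg/kg (free L9, n = 3), the polymer without L9 at 40 nanomoles (Brush, n = 2) or the polymer with a scrambled sequence at 5.3 mg/kg (pacDNA-Scr, n = 2). Doses refer to the oligonucleotide, and 21.2 and 42.4 mg/kg were given as 4 and 8 injections over 2 weeks. The number of injections thus differed along with the dose. Mice are named by group and by the number or letter of their label. One WT library matched its group by name but no single label, and is called WT u.

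White adipocytes store triglyceride in a single large droplet coated by perilipin 1 and CIDEC, and release adiponectin, leptin, resistin and adipsin into the blood. Brown and beige adipocytes burn lipid for heat through UCP1. Fat lies between the bundles of limb muscle and around the muscle itself, so a piece of quadriceps carries some of it, and its amount varies with the animal and with the dissection. In bulk RNA, fewer adipocytes in a sample and less of an RNA per adipocyte cannot be told apart.

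The libraries held 13605309 to 26956558 counts. The samples were deposited under 2 runs of record numbers, here called deposited sets, and the mouse labels continue across them. The second set holds 6 libraries: NT 7 and 8, 21.2 mg/kg C, free L9 C, and C and D at the lowest dose. In all of these except free L9 C every mitochondrial gene was listed at 0. In the first set, 9 libraries were classed by a column name of group and running number (plain names). Among them are all 3 at 42.4 mg/kg, whose names also hold an H before the number. Sex was read from *Xist*, *Ddx3y*, *Eif2s3y*, *Kdm5d* and *Uty*. It gave 20 female and 10 male mice, with 4 females among 5 WT mice, 4 among 8 NT mice and 3 of 3 at 42.4 mg/kg. The samples were muscle by their markers. The 8 genes of the muscle fibre (*Ckm*, *Acta1*, *Myh4*, *Myh1*, *Myh2*, *Tnnt3*, *Mylpf* and *Pvalb*) summed to 100549 to 180864 CPM (counts scaled to library size). The 10 adipocyte genes summed to 1035 to 5207 CPM, and to 149 to 3298 CPM without *Car3*, which muscle also makes.

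Per kilobase of exon, the scale on which genes can be set beside each other, *Car3* was the most abundant of the 10, with a median over 30 libraries of 399 CPM per kilobase. *Cfd* followed at 64.8, *Fabp4* at 37.5 and *Scd1* at 29.6 CPM per kilobase. The medians of *Adipoq* (4.38), *Cidec* (3.43), *Plin1* (1.88), *Retn* (1.31), *Lep* (0.49) and *Ucp1* (0.38 CPM per kilobase) were lower. All further levels are in CPM after TMM normalization, without division by length.

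The genes lie on 7 chromosomes of GRCm39. Those that the results turn on most are *Adipoq* (ENSMUSG00000022878, chr16:22964106-22976810, plus strand), *Plin1* (ENSMUSG00000030546, chr7:79369966-79382718, minus strand), *Lep* (ENSMUSG00000059201, chr6:29060216-29073877, plus strand), *Car3* (ENSMUSG00000027559, chr3:14928489-14937595, plus strand) and *Ucp1* (ENSMUSG00000031710, chr8:84016647-84025085, plus strand). Because 9 of the 10 genes varied together across the mice (below), their promoters were searched for sites of the regulators of fat cell genes. Printed 5′ to 3′ are the 250 bases before the start of the canonical transcript (GENCODE vM39, GRCm39) for a white adipocyte hormone without a match (*Adipoq*, chr16:22965036-22965285), for the hormone with the match in capitals (*Lep*, chr6:29059966-29060215) and for the brown fat gene (*Ucp1*, chr8:84016691-84016940).
Adipoq: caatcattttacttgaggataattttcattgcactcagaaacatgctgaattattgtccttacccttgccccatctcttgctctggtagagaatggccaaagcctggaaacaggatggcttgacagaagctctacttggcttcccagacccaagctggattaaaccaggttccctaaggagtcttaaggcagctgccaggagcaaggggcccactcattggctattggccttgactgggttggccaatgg
Lep: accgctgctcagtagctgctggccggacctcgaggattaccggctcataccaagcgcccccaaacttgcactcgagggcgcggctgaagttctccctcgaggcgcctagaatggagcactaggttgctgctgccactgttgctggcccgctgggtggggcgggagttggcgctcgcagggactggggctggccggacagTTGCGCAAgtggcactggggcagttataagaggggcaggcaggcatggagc
Ucp1: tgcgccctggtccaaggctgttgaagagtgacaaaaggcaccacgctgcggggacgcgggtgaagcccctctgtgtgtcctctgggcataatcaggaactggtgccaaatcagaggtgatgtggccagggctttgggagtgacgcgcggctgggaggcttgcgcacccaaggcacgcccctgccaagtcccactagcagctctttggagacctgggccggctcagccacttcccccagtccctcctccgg

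The capitals in *Lep* mark TTGCNNAA, a form of the site of C/EBP proteins, transcription factors of adipocyte differentiation. It starts 51 bases before the transcript and reads the same on both strands. This motif, searched on both strands, was found in 1 of the 10 promoters and in 9.34% of 21770 promoters of protein-coding genes of the same length. The direct repeat of AGGTCA with 1 base between its copies, the site type of PPARG with RXR, was in 0 of 10 promoters and in 2.91% of all with up to 2 mismatches. TCACNCCAC, a site of SREBP proteins, was in 0 of 10 and 1.12% of all, and TATAAA in 0 of 10 and 11.9% of all. Such matches describe letters in these windows and not sites of binding.

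The adipocyte genes spanned a wide range between single mice, as the plot of each gene by group shows. *Adipoq* was read at 12.7, 52.4, 26.9, 41.2 and 6.47 CPM in WT 1 to 4 and WT u. The 8 NT mice ran from 1.91 CPM in NT 2 through a median of 9.21 to 109 CPM in NT 4. NT thus held both one of the lowest and one of the highest levels of the study, and its range enclosed that of every other group except free L9. At 5.3 mg/kg *Adipoq* stood at 3.79, 47.9, 21.5 and 12.8 CPM in mice A to D, and at 21.2 mg/kg at 3.05, 20.8 and 26.8 CPM. At 42.4 mg/kg it stood at 7.46, 5.31 and 5.31 CPM, the narrowest spread among the groups of 3 or more. Free L9 A, B and C gave 1.81, 125 and 10.4 CPM, which are the lowest and the highest value of all 30 libraries and one in the middle. Free L9 B also stood apart as a library. It had counts in 14485 genes, against 17844 to 22297 in the others, and the most mitochondrial counts (3745588 of 16782911). The part of this in its values was not tested. Brush gave 6.99 and 4.46 CPM and pacDNA-Scr 3.98 and 16.4 CPM.

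**Figure D1:**
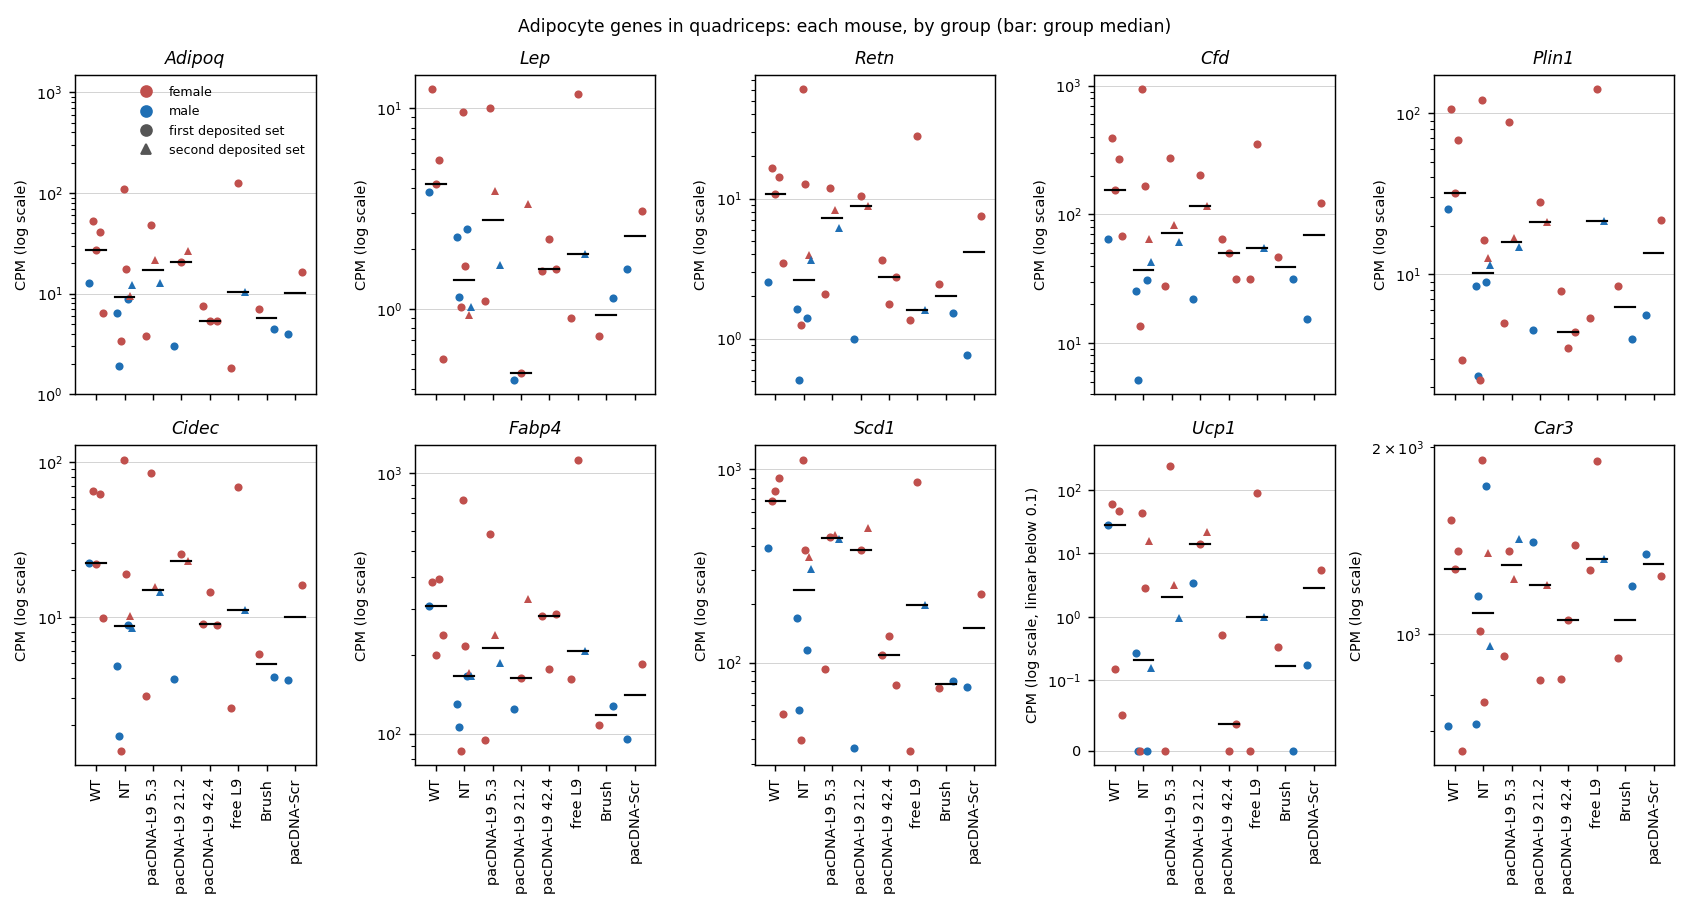
CPM of each of the 10 genes in each mouse (log scale, linear below 0.1 for *Ucp1*), by group. Points are mice, coloured by sex and shaped by deposited set, and bars are group medians. NT 4, 5.3 mg/kg B and free L9 B stand above the other mice of their groups for most genes, and the axis of *Car3* spans far less than the others.

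*Plin1* and *Cidec*, the droplet proteins, had their 5 highest levels in the same 5 libraries as *Adipoq*. *Plin1* was read at 122 CPM in NT 4 and 141 CPM in free L9 B, then at 106 CPM in WT 2, 88.7 CPM in 5.3 mg/kg B and 68.1 CPM in WT 4, and in WT 3 at 31.9 CPM, with every other library lower. At 42.4 mg/kg it stood at 7.83, 3.48 and 4.38 CPM. *Cidec* reached 104 CPM in NT 4 and was lowest in NT 3, at 1.36 CPM. For *Plin1*, 8.52, 2.33, 2.22, 122, 16.4, 9.01, 12.6 and 11.4 CPM were read in NT 1 to NT 8, so that 7 of the 8 NT mice lay below every WT mouse except WT u.

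The secreted proteins spread as widely. *Cfd* ran from 5.17 CPM in NT 2 to 941 CPM in NT 4, a 182-fold range, and *Retn* from 0.51 CPM in NT 2 to 60.5 CPM in NT 4. *Lep*, the least abundant of the 4, ran from 0.44 CPM in 21.2 mg/kg A, which was 8 counts, to 12.5 CPM in WT 2. *Fabp4*, which endothelial cells and macrophages also express, kept a higher floor, with 86.1 CPM in NT 3 and 1124 CPM in free L9 B. *Scd1* spanned 35.1 CPM in free L9 A to 1120 CPM in NT 4.

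*Car3* did not follow this pattern. It ran from 651 CPM in WT u to 1909 CPM in NT 4, a 2.93-fold range, and its biological coefficient of variation within groups was 0.32, against 0.34 for the median of all genes tested. The other 9 genes had coefficients of 0.615 (*Fabp4*) to 2.26 (*Ucp1*), and each exceeded that of at least 76.2% of the genes tested. *Car3* is abundant in slow muscle fibres as well as in fat.

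*Ucp1* was the most uneven of the 10. It had 0 counts in 7 of the 30 libraries (NT 2, NT 3, NT 6, 5.3 mg/kg A, 42.4 mg/kg B, Brush B and free L9 A), 1 to 3 counts in 5, and over 10 CPM in 9. The 3 counts taken as the least that a library can show amount to 0.13 to 0.17 CPM in the NT libraries. The highest level was 240 CPM in 5.3 mg/kg B, followed by 87.4 CPM in free L9 B, 58.9 in WT 2, 46.9 in WT 4, 43.7 in NT 4 and 27.5 CPM in WT 1. *Ucp1* counts did not track those of *Adipoq* one to one. They were 5.02 times those of *Adipoq* in 5.3 mg/kg B and 2.16 times in WT 1, but 0.0056 times in WT 3, where *Adipoq* was read at 26.9 CPM and *Ucp1* at 0.15 CPM (3 counts). NT 4, with 109 CPM of *Adipoq*, had a ratio of 0.40.

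For every one of the 10 genes, each neighbour in the order of group medians overlapped the next in its range over mice. For *Adipoq* the order ran from WT (median 26.9 CPM) through 21.2 mg/kg (20.8), 5.3 mg/kg (17.1), free L9 (10.4), pacDNA-Scr (10.2), NT (9.21) and Brush (5.73) to 42.4 mg/kg (5.31 CPM). WT had the highest median for 8 of the 10 genes. Of the 70 pairs of a gene and a group other than NT, 0 had a range that did not overlap that of NT. The overlap was not counted over all genes tested. NT held 8 mice with a 56.9-fold range of *Adipoq*, so groups of 2 to 5 mice could hardly fall outside it.

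**Figure D2:**
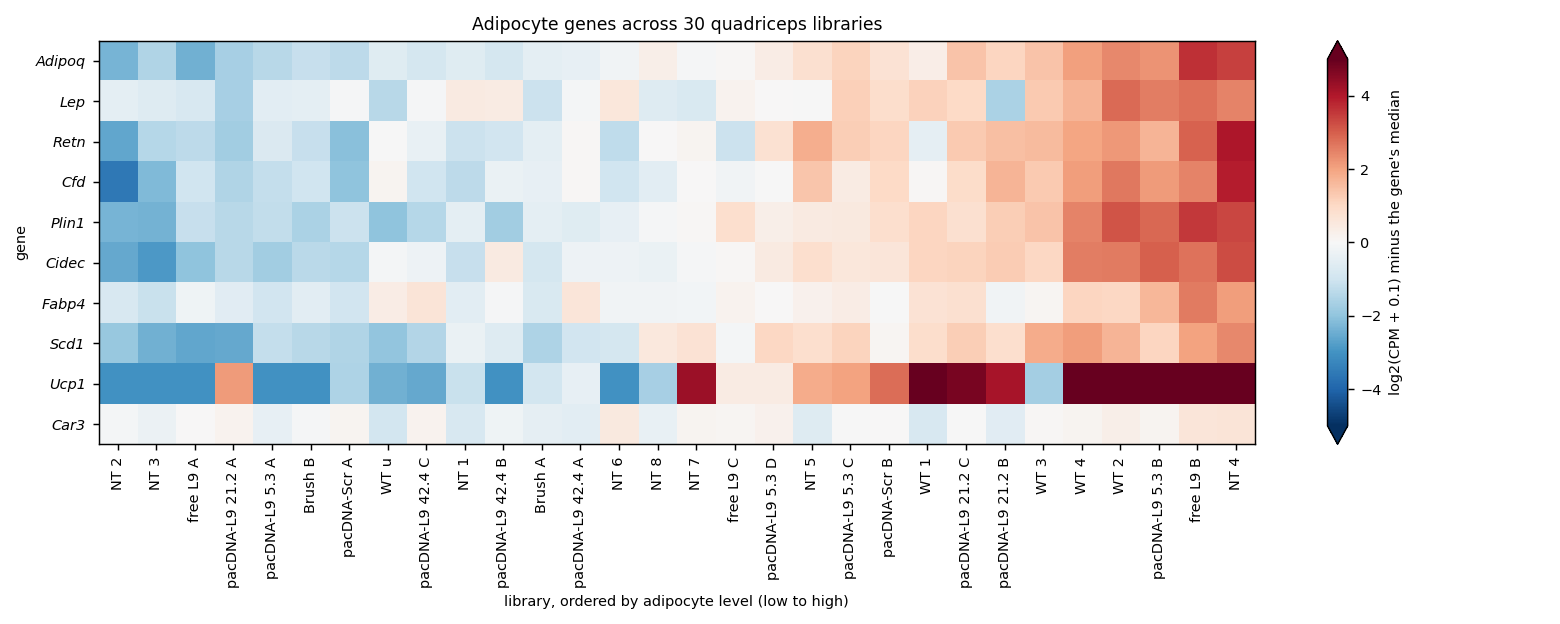
The 10 genes (rows) in 30 libraries (columns), ordered by adipocyte level, the mean log2 CPM of *Adipoq*, *Plin1* and *Cidec*. Colour is log2(CPM + 0.1) minus the median of the gene. Libraries of each group are scattered along the order, NT 2 and NT 3 lie at its low end and NT 4 and free L9 B at its high end, and the row of *Car3* is nearly flat.

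Within groups the genes varied together. After the mean of each condition was subtracted from log2 CPM, 8 of the other 9 genes correlated with *Adipoq* over the 24 libraries of the first set, with adjusted permutation p-values of 0.00036 or below for Pearson's r (permutation within conditions, two-sided, Benjamini-Hochberg over 9 relations). Pearson's r was 0.964 for *Cidec* (Spearman's rho 0.957), 0.959 for *Plin1* (0.975), 0.939 for *Retn* (0.934), 0.938 for *Cfd* (0.960) and 0.932 for *Scd1* (0.914). It was 0.907 for *Fabp4* (rho 0.873), 0.861 for *Lep* (0.792) and 0.852 for *Ucp1* (0.830). For *Plin1*, *Cfd* and *Retn* the unadjusted permutation p of 1e-05 is the smallest that the permutations can give. *Car3* had r = 0.447 and rho = 0.382, with permutation p-values of 0.0718 and 0.121 (0.0718 and 0.121 after adjustment). Without NT 4 and free L9 B, the libraries farthest from the median of *Adipoq*, r remained between 0.797 (*Lep*) and 0.950 (*Cidec*) for those 8 genes and was 0.278 for *Car3*. In the 15 libraries with other column names r was 0.816 (*Ucp1*) to 0.984 (*Cfd*) for the 8 genes and 0.431 for *Car3*, and in the 9 with plain names it was 0.891 (*Lep*) to 0.975 (*Cidec*) and 0.483. The libraries share their depth and normalization across these genes.

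**Figure D3:**
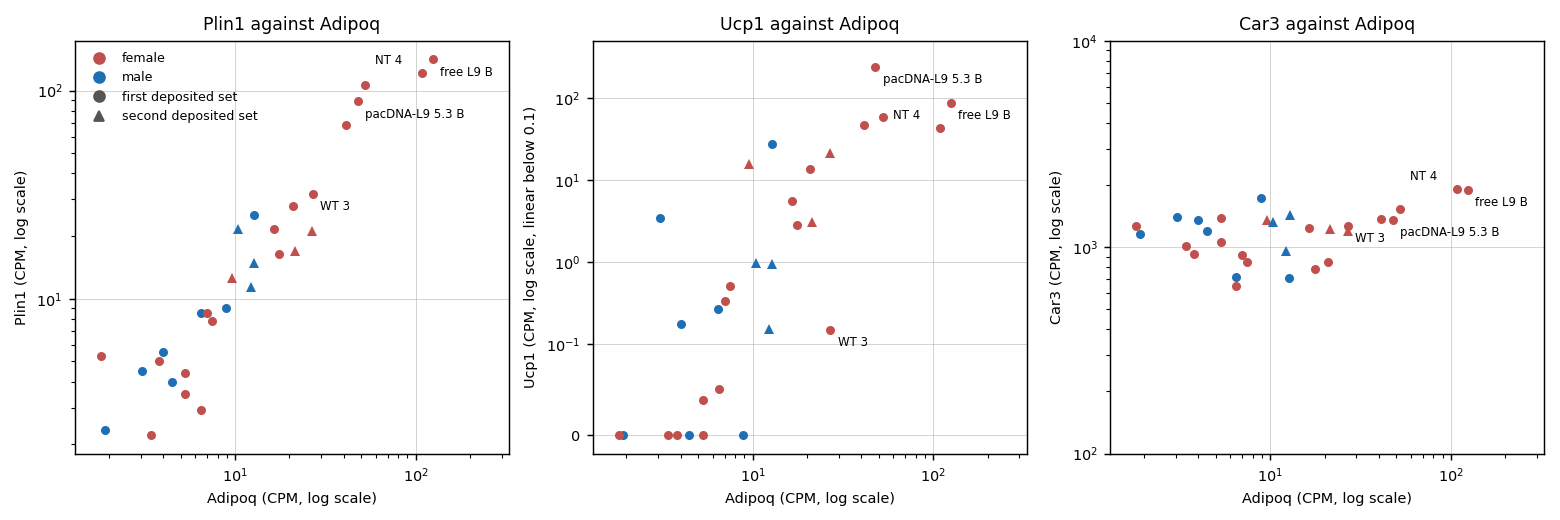
*Plin1*, *Ucp1* and *Car3* against *Adipoq* in 30 mice (CPM, log scales, *Ucp1* linear below 0.1), coloured by sex and shaped by deposited set. *Plin1* follows *Adipoq* over its whole range, *Ucp1* spreads more widely around it, with WT 3 far below and 5.3 mg/kg B far above, and *Car3* stays between 651 and 1909 CPM.

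Comparison of NT with WT asks what the transgene changes. In 871 of 17518 genes (4.97%) the difference had an adjusted p under 0.05 by edgeR's quasi-likelihood test. None of the 10 adipocyte genes was among them. Of all genes 3771 had an unadjusted p under 0.05, with 0 of the 10 among these, and DESeq2 called 0 of the 10. Their log2 fold changes, NT over WT, were negative for 8 of 10 with a median of −0.61, against 0.03 for all genes tested. Apart from *Car3* the genes varied together, so counts of signs, here and below, are not of 10 separate readings. Males were 4 of 8 NT mice and 1 of 5 WT mice, and all 10 log2 fold changes, male over female, were negative (below). Sex thus differed between these groups along with the transgene. *Adipoq* differed by −0.40 ± 0.90 (SE, 95% confidence interval −2.26 to 1.45), *Plin1* by −1.03 ± 0.92 (−2.94 to 0.88) and *Ucp1* by −1.76 ± 1.68 (−5.24 to 1.71). The lowest adjusted p of the 10 was 0.40, for *Lep*. The median standard error of the 10 was 0.90, against 0.27 for all genes tested. Without NT 4 *Adipoq* differed by −1.70 and *Plin1* by −2.39 (adjusted p 0.0998, edgeR), and without WT 2 by −0.049 and −0.48. *Car3*, with the narrowest interval, differed by 0.12 ± 0.24 (−0.37 to 0.61).

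The dose groups were each compared with the same 8 NT mice, so their differences share those controls. At 5.3 mg/kg 0 genes in all were called (0%), with 250 at an unadjusted p under 0.05, and the 10 adipocyte genes were not among these. *Adipoq* differed from NT by 0.03 ± 0.97 and *Plin1* by 0.45 ± 0.99. *Ucp1* differed by 2.96 ± 1.77, a value that rested on mouse B and was −2.50 without it. At 21.2 mg/kg 9 genes (0.0514%) were called and 0 of the 10. *Adipoq* differed by −0.32 ± 1.10, *Plin1* by −0.36 ± 1.14 and *Ucp1* by 0.72 ± 1.97. Without the control mouse NT 4 *Adipoq* differed by 1.32 at 5.3 mg/kg, and at 21.2 mg/kg its direction turned, to 0.98.

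At 42.4 mg/kg 450 genes (2.57%) were called against NT (63 without mouse B), and 0 of the 10 adipocyte genes. Of all genes 2294 had an unadjusted p under 0.05, with 0 of the 10 among these, and DESeq2 called 0 of the 10. Of the 10 log2 fold changes 9 were negative, and their median was −1.65 against −0.06 for all genes tested. *Adipoq* differed by −1.81 ± 1.21 (−4.31 to 0.69), *Plin1* by −2.13 ± 1.28 (−4.79 to 0.52, adjusted p 0.44) and *Ucp1*, which rested on 11, 0 and 1 counts in the 3 mice, by −5.34 ± 3.11. For both *Adipoq* and *Plin1*, the 3 mice at this dose lay inside the range of NT. The NT mean of *Adipoq*, 21.1 ± 35.7 CPM (SD, n = 8), rested on NT 4, and without NT 4 the log2 fold change of *Adipoq* was −0.51 and that of *Plin1* −0.77. With sex in the model (all 3 mice were female), *Adipoq* differed by −2.36 and *Plin1* by −2.64, with adjusted p-values of 0.40 and 0.37. With the column-name class in the model, which all 3 mice share, the values were −1.65 and −1.53, with adjusted p-values of 0.97 and 0.98.

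With free L9, 22 genes (0.126%) were called against NT (314 without mouse C and 242 without mouse A), and 0 of the 10. Of all genes 1641 had an unadjusted p under 0.05, with 0 of the 10 among these, and DESeq2 called 0 of the 10. *Adipoq* differed from NT by 1.12 ± 1.02, *Plin1* by 1.28 ± 1.06 (−0.90 to 3.47) and *Ucp1* by 1.91 ± 1.89. These rested on mouse B, and without it the 3 values were −1.84, −0.81 and −4.24. With Brush and with pacDNA-Scr 0 genes (0% each) were called. An unadjusted p under 0.05 was reached by 217 and 182 genes, none of them among the 10. All 10 log2 fold changes were negative with Brush, with a median of −1.94, and 9 of 10 with pacDNA-Scr, with a median of −1.01. Without NT 4 the values of *Adipoq* and *Plin1* were −0.59 and −0.52 with Brush, and 0.26 and 0.61 with pacDNA-Scr. *Adipoq* differed by −1.88 ± 1.46 with Brush and by −1.04 ± 1.36 with pacDNA-Scr. *Plin1* differed by −1.89 ± 1.51 and −0.75 ± 1.38, and *Ucp1*, with 5 and 0 counts in the Brush mice, by −5.66 ± 3.98 and −1.43 ± 2.66.

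Linking L9 to the polymer was compared with L9 alone at the matched dose of 5.3 mg/kg, in a single pair of compounds. Between them 2 of 17518 genes (0.0114%) were called, and 0 of the 10. *Adipoq* differed by −1.09 ± 1.21 (pacDNA-L9 over free L9, 95% confidence interval −3.58 to 1.40), *Plin1* by −0.84 ± 1.25 (−3.42 to 1.75) and *Ucp1* by 1.05 ± 2.33 (−3.78 to 5.88). *Car3* differed by −0.28 ± 0.32 (−0.93 to 0.37). The intervals of all but *Car3* held differences of over 2 log2 units. Without mouse B of free L9 the direction turned, to 1.87 for *Adipoq* and 1.26 for *Plin1*, and without its mouse C 212 genes were called in all, against 2.

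**Figure D4:**
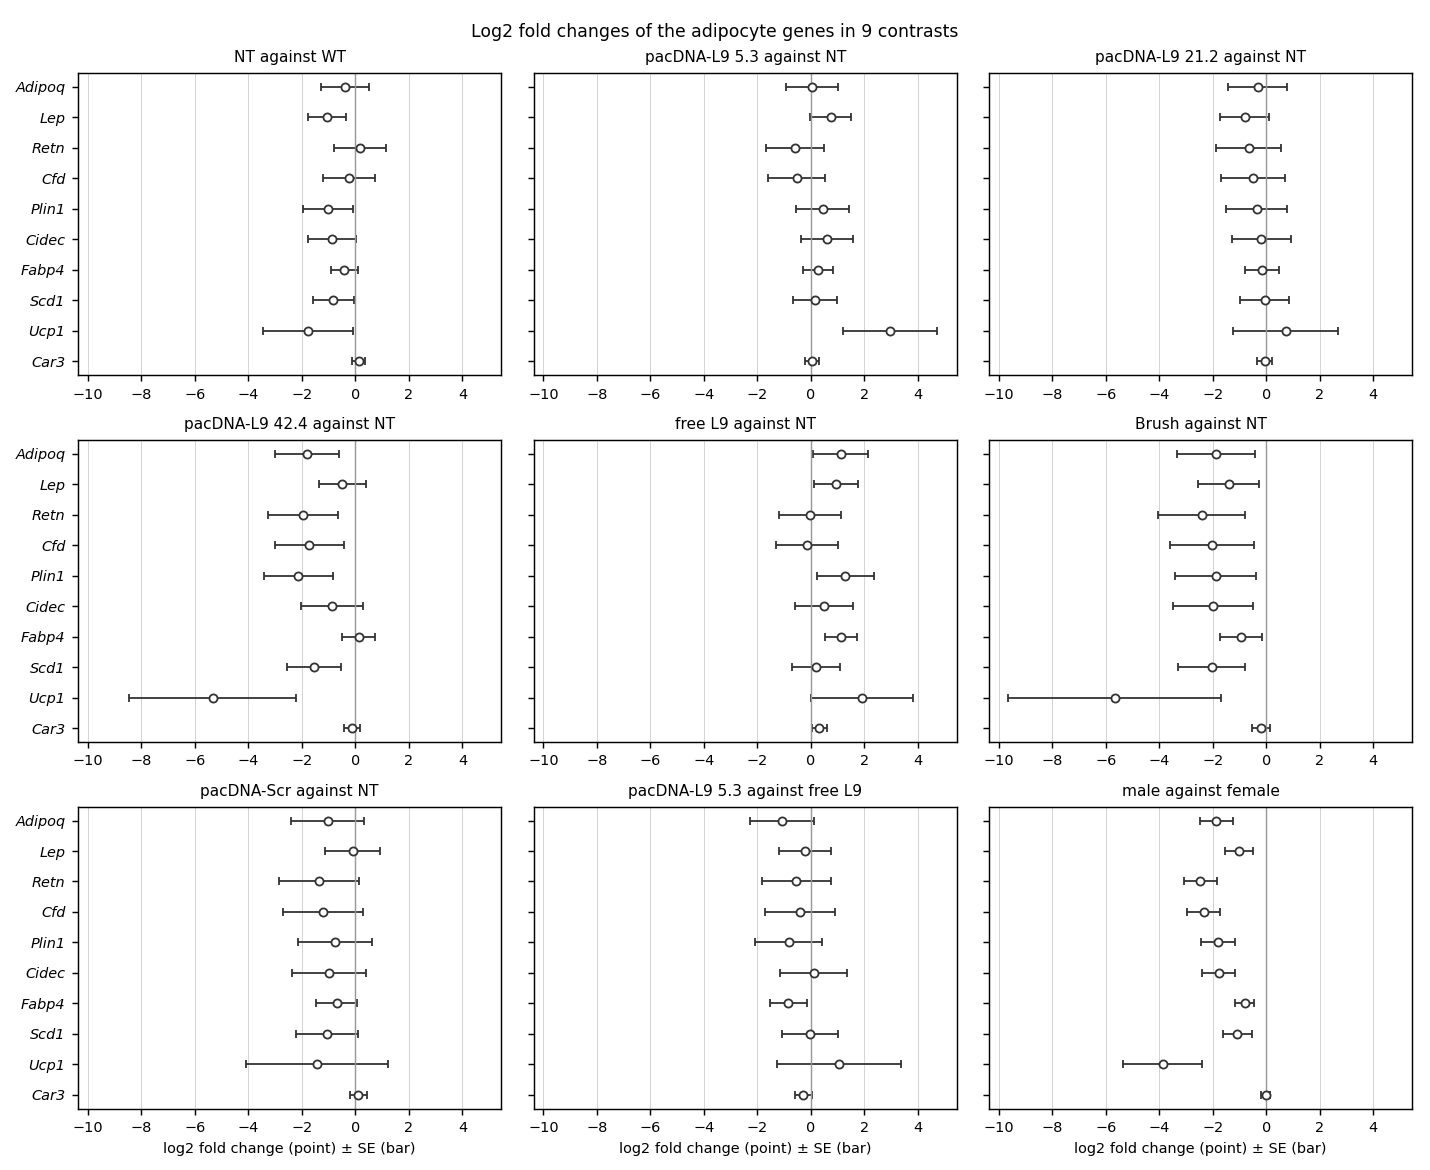
Log2 fold change (point) and SE (bar) of each of the 10 genes in 8 comparisons of groups and between the sexes. The bars of *Ucp1* are the longest and those of *Car3* the shortest, and in the panel of male against female 10 of 10 points lie below 0.

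The sexes were compared across all groups. With condition held in the model, all 10 log2 fold changes, male over female, were negative, with a median of −1.79 against 0.04 for all genes tested. By edgeR 136 of 17518 genes (0.776%) were called, and 0 of the 10 were among them. An unadjusted p under 0.05 was reached by 1658 of the 17518 genes, 7 of the 10 among them. *Retn* differed by −2.47 ± 0.63 (adjusted p 0.0698) and *Cfd* by −2.35 ± 0.63 (adjusted p 0.0884). *Adipoq* differed by −1.87 ± 0.61 (adjusted p 0.20) and *Ucp1* by −3.88 ± 1.49 (adjusted p 0.33), whereas *Car3* differed by −0.03 ± 0.18. DESeq2 called 4 of the 10: *Retn* (adjusted p 0.000193), *Cfd* (0.00158), *Ucp1* (0.0208) and *Adipoq* (0.0272). The 10 log2 fold changes were negative in both tests. Over all genes, the alternatives other than leaving out a mouse, DESeq2 among them, called 67 to 400 between the sexes. By edgeR *Retn* was called when NT 3, 5.3 mg/kg A, 5.3 mg/kg D or free L9 A was left out (adjusted p 0.0466, 0.0451, 0.0347 and 0.0389).

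*Adipoq* ran from 1.91 through a median of 7.66 to 12.8 CPM in 10 males, and from 1.81 through 17.0 to 125 CPM in 20 females. The ranges overlapped at their lower ends, and the females alone spread above 12.8 CPM. *Retn* ran from 0.51 through 1.57 to 6.14 CPM in males and from 1.25 through 7.91 to 60.5 CPM in females. The male median of *Adipoq*, *Plin1*, *Cfd*, *Retn* and *Cidec* was below the female median in each of the 7 groups with both sexes. For *Fabp4*, *Scd1* and *Ucp1* this held in 6 of the 7, for *Lep* in 5 and for *Car3* in 3. Only NT had more than 1 male, so each other male median was a single mouse. Brush and pacDNA-Scr held 1 mouse of each sex. Apart from *Car3* the genes varied together, so these counts are not separate readings. The share over all genes was not counted. The 42.4 mg/kg group had no male.

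Adipocyte genes beyond the 10 were read from lists of known markers. Of 10 further genes of adipocyte identity, 1 passed the test between NT and WT: *Itih4*, an inter-alpha-trypsin inhibitor heavy chain, was higher in NT by 2.75 ± 0.47 log2 units (adjusted p 0.000498, edgeR), from 1 to 3 counts in each WT library and 8 to 27 in each NT library. Its slope on the adipocyte level (below) was 0.12 ± 0.09, which was not called. The other 9, among them *Pparg* and *Cebpa*, the regulators of the adipocyte programme, were not called, and the list's median was −0.65. Of 13 genes of lipid synthesis, 4 receptors of adiponectin and leptin and the complement partners of adipsin, 0 were called in any comparison between conditions.

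At 42.4 mg/kg 2 of 12 genes of the lipid droplet and lipolysis list were called. *Plin4* rose by 1.93 ± 0.28 (adjusted p 0.000181) and *Plin5* by 2.48 ± 0.48 (adjusted p 0.00421) against NT. Both encode perilipins that muscle fibres also make. *Plin4* was read at 416, 1037 and 635 CPM in the 3 mice, above every NT mouse (129 to 243 CPM), and *Plin5* at 31.8, 89.3 and 76.1 CPM against 7.45 to 25.6 CPM in NT. *Ppargc1a*, a coactivator of mitochondrial genes in brown fat and in muscle, rose by 1.46 ± 0.25 (adjusted p 0.00133) as 1 of 10 genes of the brown and beige list, whose median was −1.72. *Plin1*, the perilipin of the adipocyte droplet, was not called at this dose, as given above. With the column-name class in the model *Plin4* and *Ppargc1a* were called and *Plin5* was not (1.85, adjusted p 0.15). Without mouse B of this group *Plin4* was called, whereas *Plin5* (2.19, adjusted p 0.0894) and *Ppargc1a* (0.97, adjusted p 0.13) were not.

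Some markers of other cells were called in the same comparisons. The macrophage genes *Cd68*, *C1qa* and *Csf1r* rose at 42.4 mg/kg by 2.11 ± 0.30, 1.35 ± 0.28 and 0.90 ± 0.19 (3 of 5 macrophage genes). The summed level of the 5 was 84.0 to 115 CPM at this dose and 33.3 to 56.7 CPM in NT. It also lay above the range of NT at 5.3 mg/kg (70.0 to 82.5 CPM) and with Brush (79.2 to 83.5 CPM), where 0 of the 5 genes were called. *Cd68* also rose at 21.2 mg/kg, by 1.60 ± 0.31 (adjusted p 0.0426), and between NT and WT, by 1.51 ± 0.30, as 1 of 5 macrophage genes in each. Between NT and WT the nerve gene *Mbp*, which encodes myelin basic protein, fell by 0.91 log2 units. *Dlk1*, a gene of immature adipocyte progenitors, fell by 2.00. It was the only called gene of the 10 of fibro-adipogenic progenitors, of which 5 were positive (median 0.01). *Myh1*, the myosin of IIx fibres, rose by 1.43. It was the only called gene of the 8 of muscle fibres, of which 4 were positive (median 0.03). *Mbp* was called in 4 of the 13 fits that left out 1 mouse, and *Cd68* at 21.2 mg/kg in 2 of 11. Without mouse B at 42.4 mg/kg *C1qa* (adjusted p 0.14) and *Csf1r* (0.11) were not called, and with the column-name class in the model *Cd68* (1.69, adjusted p 0.0532) and *C1qa* (1.26, adjusted p 0.15) were not. The part of macrophages in the values of the adipocyte genes was not tested.

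The adipocyte level, the mean log2 CPM of *Adipoq*, *Plin1* and *Cidec* in each library, ran from 1.01 in NT 2 to 6.80 in NT 4. It was added to the model beside the conditions, without sex, so the part of sex in the slopes was not tested. The genes of the level had negative log2 fold changes, male over female. At an adjusted p under 0.05 by edgeR, 290 of the other 17515 genes (1.66%) followed the level, 274 upwards and 16 downwards. Among them were 6 of the other 7 adipocyte genes. *Ucp1* rose by 2.00 ± 0.33 log2 units per log2 unit of level, *Cfd* by 0.96 ± 0.07, *Retn* by 0.96 ± 0.08, *Scd1* by 0.87 ± 0.09, *Lep* by 0.66 ± 0.09 and *Fabp4* by 0.48 ± 0.05. *Car3* had a slope of 0.12 ± 0.05, which was not called (adjusted p 0.30).

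Of the adipocyte identity list 9 of 10 followed the level, all upwards, with slopes of 0.44 ± 0.04 (*Pparg*) to 1.41 ± 0.13 (*Apoc1*). Of lipid synthesis 9 of 13 did, among them *Fasn* (1.09 ± 0.09), the fatty acid synthase, and *Pck1* (1.23 ± 0.07), the enzyme of glyceroneogenesis in fat. Of the brown and beige list 5 of 10 did (*Cidea*, *Kcnk3*, *Otop1*, *Slc27a2* and *Cpn2*), and of lipid droplet and lipolysis 3 of 12 (*Plin2*, *Lipe* and *Cidea*, which is on both lists). *C3*, a complement component that adipsin's pathway activates, rose by 0.43 ± 0.06, and *Adipor2*, a receptor of adiponectin, by 0.07 ± 0.02. None of the 10 genes of fibro-adipogenic progenitors, 5 of endothelium, 5 of macrophages, 5 of red blood cells, 4 of nerve, 8 of muscle fibres and 5 of slow fibres was called, nor was the single skin gene tested. The slopes of *Plin4* (0.06 ± 0.06), *Plin5* (−0.02 ± 0.10) and *Ppargc1a* (0.02 ± 0.05) were near 0.

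**Figure D5:**
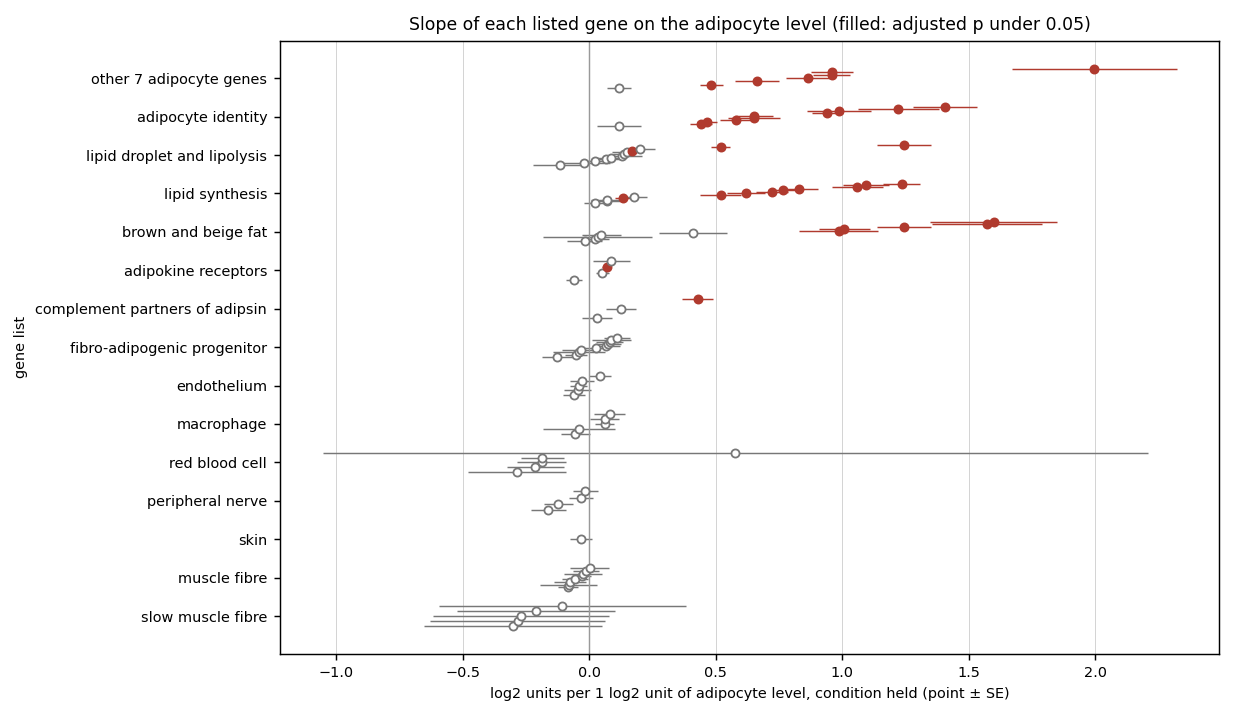
Slope of each listed gene on the adipocyte level with condition held (log2 units per log2 unit, point ± SE), by gene list. Filled points have an adjusted p under 0.05. Called slopes lie in the adipocyte, lipid and brown fat lists, with 1 each among the adiponectin and leptin receptors and the complement genes.

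The 5 genes outside the 10 whose deviations within conditions were most like the adipocyte level, over 24 libraries and 12596 genes with a mean above 1 CPM, were *Cdo1* (r = 0.979), *Prkar2b* (0.972), *Lgals12* (0.972), *Pck1* (0.967) and *Arxes2* (0.964). *Cdo1* encodes cysteine dioxygenase, *Prkar2b* a regulatory subunit of protein kinase A, and *Lgals12* a galectin of adipocytes. The most negative were *Ppp5c* (r = −0.815), *Trak1* (−0.802), *Polrmt* (−0.796), *Irx3* (−0.790) and *P2ry2* (−0.777). These values describe the closest of many genes and carry no test.

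The comparisons of conditions were repeated with the adipocyte level in the model. Between NT and WT 795 genes were called with the adipocyte level in the model and 871 without it, and 698 were shared (87.8% of the former and 80.1% of the latter), the 10 genes aside. At 42.4 mg/kg 489 were called with it and 450 without it, and 429 were shared (87.7% and 95.3%). At 21.2 mg/kg 6 of 9 genes remained, with free L9 17 of 22, and between pacDNA-L9 and free L9 at 5.3 mg/kg 0 of 2. Of the 871 genes called between NT and WT, 10 also followed the level (1.15% of the 871 and 3.45% of the 290 that did). At 42.4 mg/kg 5 of the 450 did (1.11% and 1.72%). Over all genes, 1.66% followed the level, 4.97% were called between NT and WT and 2.57% at 42.4 mg/kg.

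Of the list genes called in a comparison, *Cd68* at 21.2 mg/kg was not called with the level in the model (1.55 ± 0.31, adjusted p 0.0731). *Plin4* (1.96 ± 0.28), *Plin5* (2.47 ± 0.50) and *Ppargc1a* (1.47 ± 0.26) at 42.4 mg/kg, and *Itih4* between NT and WT (2.90 ± 0.48), kept their size and their call. With the level held, *C3* (1.48 ± 0.33, adjusted p 0.0110), *Cfp* (1.16 ± 0.28, adjusted p 0.0222) and *Pnpla2* (1.08 ± 0.30, adjusted p 0.0479), which encode 2 complement components and adipose triglyceride lipase, were called at 42.4 mg/kg, and *Pi16* and *Csf1r* between NT and WT.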

How the data were processed

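Per the labels and the study's methods, poly(A)-enriched paired-end libraries were made from single quadriceps sections, and the authors deposited raw read counts per gene. The submitters' processing notes name HISAT2 2.0.5, GRCm39 and DESeq2. The study's methods list Rsubread among the packages used, without saying for which step. From these counts, genes that passed edgeR's filterByExpr were normalized by TMM and fitted with edgeR 4.0.16 (quasi-likelihood, robust) in R 4.3.3, in 1 model of 8 conditions over 30 libraries. P-values were adjusted by Benjamini-Hochberg over all genes tested, at a threshold of 0.05. Standard errors are of the log2 fold changes. The comparison of the sexes added sex to the model, and the adipocyte level (log2 CPM, prior count 1) was a further covariate. Correlations used deviations from condition means and 100000 permutations. Alternatives were DESeq2 1.42.0, 2 other scalings, no filter, other sample sets and covariates, robust estimation off, and each mouse left out. The 10 genes are those the comparison is about; of the list genes those called were named, except 1 that is not reported here, and the 5 genes most like the adipocyte level in each direction. Members and lists were chosen with earlier results of these data known. The scripts were tested on simulated data. Replicates are mice of a group as labelled. The smaller groups of 2 and 3 mice limit the precision, and 3 counts were taken as the least that a library can show, which covers counting error only.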

Additional observations from a re-analysis of the deposited data

Results flagged for a closer look

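In each group of 4 to 10 mice the highest and lowest values were compared with the rest by Dixon's ratio, at the 95% level, for each of the 10 genes. Of 30 pairs of a gene and a group 13 were marked. The ratio's chance rate of about 1 in 20 holds for normally distributed values. The values compared were CPM without a log and were skewed, with a mean of 21.1 and a median of 9.21 CPM for *Adipoq* in NT. The 13 are therefore not set against that rate. Of the 13, 9 were in NT 4. The genes vary together, so these are not 9 separate events. In NT 4 *Adipoq* was read at 109 CPM (the next highest NT mouse was at 17.6), *Plin1* at 122, *Cidec* at 104, *Cfd* at 941 and *Fabp4* at 789 CPM. *Scd1* was read there at 1120 CPM, *Retn* at 60.5, *Ucp1* at 43.7 and *Lep* at 9.53 CPM.

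At 5.3 mg/kg mouse B was marked for *Plin1* (88.7 CPM, next 16.9), *Cidec* (85.8 CPM, next 15.6) and *Ucp1* (240 CPM, next 3.13). Mouse A of the same group was marked at the low end for *Scd1*, with 92.8 CPM against 435 CPM in the nearest other mouse.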

How the results depend on the processing

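Under all alternatives run, 0 of the 10 genes were called in any comparison of conditions, and the lowest adjusted p was 0.0998 with a mouse left out and 0.155 otherwise. Of the log2 fold changes 29 of 970 changed sign under the alternatives other than leaving out a mouse, and 85 of 1150 with a mouse left out. Between the sexes 1 gene was called with library size as the only scaling and 4 with DESeq2, and 0 to 1 with a mouse left out. The causes were not tested. Over all genes, the alternatives other than leaving out a mouse called 631 to 1957 genes between NT and WT (871 as reported), 132 to 1380 at 42.4 mg/kg (450), 0 to 17 at 21.2 mg/kg (9), 0 to 397 with free L9 (22), 0 to 86 with Brush (0), 0 to 313 with pacDNA-Scr (0), 0 to 145 for pacDNA-L9 against free L9 (2) and 67 to 400 between the sexes (136). With a mouse left out the ranges were 636 to 861, 63 to 448, 2 to 10, 13 to 314, 0, 0, 0 to 212 and 93 to 200. The 63 came without mouse B at 42.4 mg/kg, and the 314 and the 212 without mouse C of free L9.

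The labels give WT and NT mice the same numbers. Same-numbered mice correlated at 0.144, −0.05, 0.106 and 0.168 in their deviations from group means. The numbers thus showed no clear pairing, which so few values cannot exclude. With the replicate number as a block 0 of the 10 genes and 631 genes in all were called, against 680 in the same 8 mice without the block, an alternative chosen after seeing the data. *Car3* between NT and WT was −0.061 with the block and −0.028 in the same mice without it.

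Of the values of *Adipoq*, *Plin1*, *Car3* and *Ucp1*, further changes of sign, none in a called value, were *Adipoq* at 5.3 mg/kg with sex in the model (−0.051), *Car3* at 5.3 mg/kg in the first deposited set (−0.092) and without the 5 libraries with mitochondrial genes at 0 (−0.10), *Car3* between the sexes in the first set (0.0069), and, with the column-name class in the model, *Ucp1* with pacDNA-Scr (0.38) and for pacDNA-L9 against free L9 (−0.86). With the adipocyte level in the model the first set gave 2 genes at 21.2 mg/kg, 162 with free L9 and 184 for pacDNA-L9 against free L9 at 5.3 mg/kg, and 2 genes were called in the last with *Adipoq* alone as the level.

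With a mouse left out in turn, *Adipoq* ranged from −0.73 to 1.32 at 5.3 mg/kg, from −0.82 to 0.98 at 21.2 mg/kg, from −1.84 to 2.41 with free L9, from −2.40 to 0.26 with pacDNA-Scr and from −1.85 to 1.87 for pacDNA-L9 against free L9. *Plin1* ranged over the same comparisons from −0.91 to 1.81, −0.84 to 1.00, −0.81 to 2.65, −2.05 to 0.61 and −2.19 to 1.26. *Ucp1* ranged from −2.50 to 4.49 at 5.3 mg/kg, −4.24 to 3.44 with free L9, −5.43 to 0.10 with pacDNA-Scr and −4.41 to 7.21 for pacDNA-L9 against free L9. *Car3* ranged from −0.020 to 0.27 between NT and WT, −0.043 to 0.16 at 5.3 mg/kg, −0.23 to 0.12 at 21.2 mg/kg, −0.34 to 0.020 at 42.4 mg/kg and −0.12 to 0.059 between the sexes.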
